A study of Mus musculus with 8 samples.

Results

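Ier2, Ier3, Ier5, Ier5l, Csrnp1, Csrnp2, Csrnp3, Trib1 and Trib2 are 9 genes named for, or counted among, rapid responses to stimulation, and their transcripts were followed in cultured mouse neurons after depolarisation. A gene was included where a probe set carried its symbol alone in the platform annotation. All 9 were found, each with 1 probe set, among 22180 genes measured. Hippocampal neurons of C57BL/6J mice, an inbred laboratory strain, were prepared from E18.5 embryos, shortly before birth, and kept for 11 days in vitro. The treated cultures were then held in 55 mM KCl for 4 h and the others were left untreated, with 4 arrays in each group. Every array had a mouse number of its own and the replicate numbers 1 to 4 recur in both groups. Both groups had been given AraC, which kills dividing cells, and no transgene or other agent was named. RNA came from whole cultures, so fewer cells of a type and less RNA per cell cannot be told apart.

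Raised potassium outside the cell depolarises neurons and lets calcium in, which starts transcription of immediate-early genes without the need for new protein. Ier2, Ier5 and Ier5l encode related nuclear regulators, whereas Ier3 encodes an unrelated short protein that affects cell survival and MAP kinase signalling. The Csrnp genes encode nuclear proteins rich in cysteine and serine that act on transcription, and Csrnp1 was named early on as a gene induced by axin. Trib1 and Trib2 encode Tribbles pseudokinases, which hardly act as kinases themselves and instead bring the ubiquitin ligase COP1 to its substrates, C/EBP transcription factors among them.

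Values are log2 probe set values as deposited, on Affymetrix whole-transcript arrays. The array medians lay between 4.44 and 4.48, and the number of arrays limits precision. Over all genes, arrays of one group correlated at r = 0.959 to 0.988 across genes, and both arrays numbered 1 stood apart from the rest on the leading principal component, with scores of -43.2 (KCl) and -48.6 (untreated). Calls of the 9 genes that change without those arrays are given both ways. The mean log2 level of 8 neuron markers was 10.16 to 10.45 in KCl arrays and 10.25 to 10.56 in untreated arrays, and none of the 8 passed the test. That of 7 astrocyte markers was 8.51 to 9.03 in KCl arrays and 8.51 to 9.32 in untreated arrays. Of these the glutamate transporter gene Slc1a2 fell in KCl cultures (log2 change -0.78, limma adjusted p = 0.0479, or 0.062 with the replicate number as a block). That call was kept in 1 of the 8 fits without 1 array, the one without untreated replicate 2 (adjusted p = 0.0212), reached 0.14 in the others, and was lost without both arrays numbered 1 (0.13). The 7 progenitor and cycling markers averaged 5.88 to 6.64 in KCl arrays and 5.50 to 6.21 in untreated arrays, and 7 of 7 had a change above 0, as had 10456 of all 22180 genes. None of the 7 passed without the block, and Pax6 rose with it (limma adjusted p = 0.0461). Interneuron markers averaged 6.19 to 7.24 in KCl arrays and 5.77 to 6.81 in untreated arrays. None of the 5 passed without the block, and Gad2 fell with it (log2 change -0.49, limma adjusted p = 0.0458). Gad1 (1.08) and Sst (0.87) had log2 changes above 0, and Slc32a1 (-0.09) and Npy (-0.13) below 0. None of these passed in either fit. Markers of microglia, oligodendrocytes, endothelium, fibroblasts and mural cells averaged between 4.14 and 5.29 in KCl arrays and between 4.23 and 5.21 in untreated arrays, with none past the test in either fit. No marker was listed at 0, and the part of other cell types in the results below was not tested.

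Of the 9 genes, 3 rose after 4 h of KCl, Ier2, Csrnp1 and Ier3, 0 fell, and 6 missed the threshold, a limma adjusted p under 0.05 over all genes. By that rule 2.36% of all genes changed, 1.34% upwards and 1.02% downwards. Ier2 rose 4.09-fold, Csrnp1 3.45-fold and Ier3 2.03-fold. The untreated values of Csrnp1 lay below every array median. With the replicate number as a block Csrnp3 rose as well, which made 4 of 9, and in that fit 2.43% of all genes rose and 2.01% fell. Every KCl array lay above every untreated array for 5 of the 9, namely Ier2, Ier3, Ier5, Csrnp1 and Csrnp3, against 3.83% of all genes. For 0 of the 9 was every KCl array below every untreated array, against 4.33% of all genes. The median log2 change was 0.74 over the 9 genes and -0.01 over all genes. The 9 genes were chosen with earlier results of these data known, so these comparisons with all genes are a description only.

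**Figure D1:**
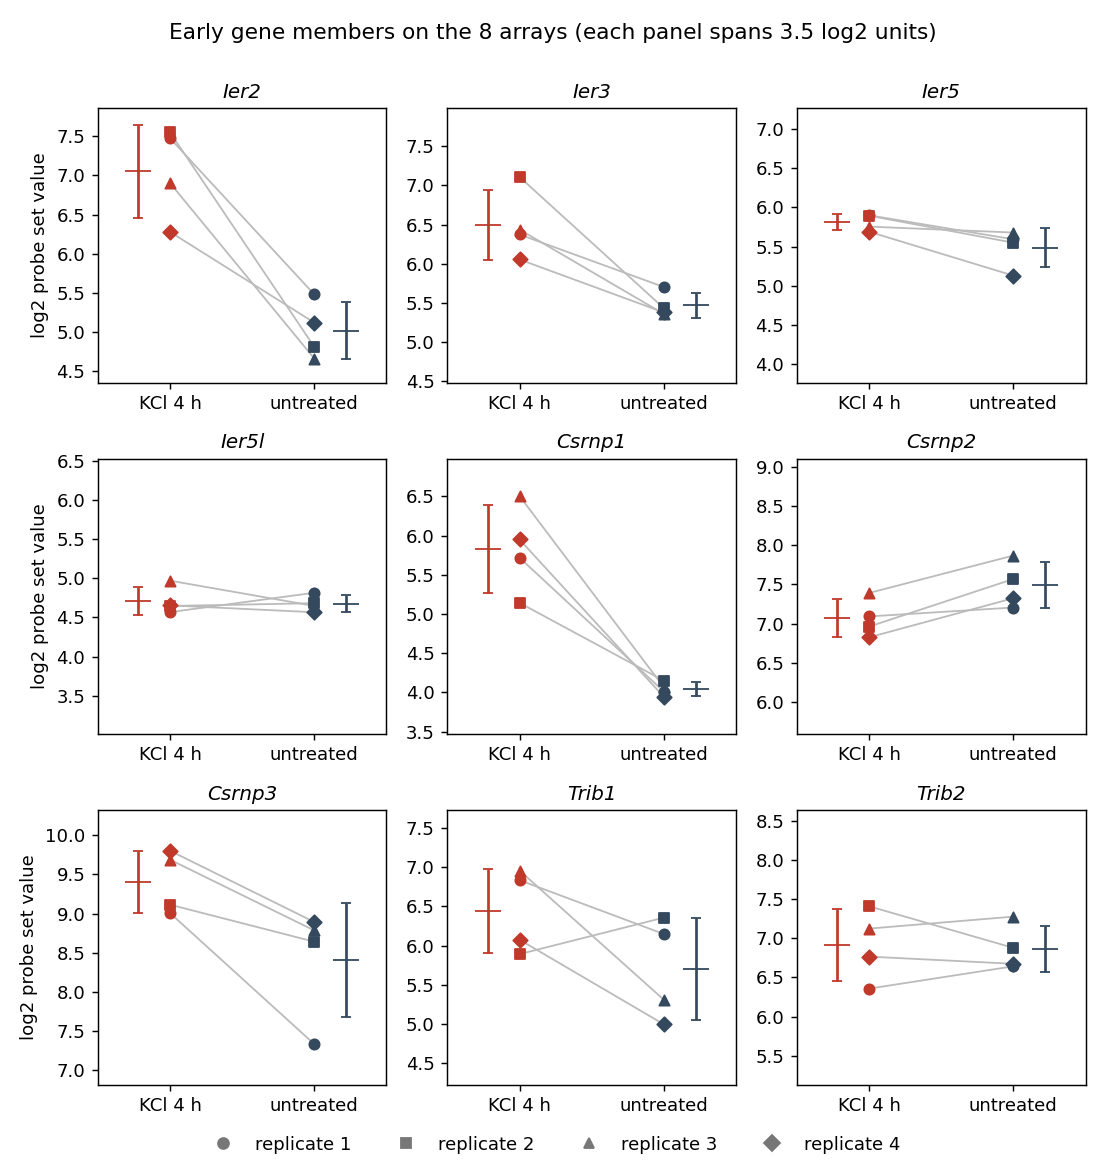
Log2 probe set value of each gene on each array, with KCl 4 h on the left and untreated on the right of each panel. Symbols mark replicate numbers, grey lines join same-numbered arrays, and the bars beside them are the mean and SD of 4 arrays. Ier2, Ier3 and Csrnp1 separate clearly, Csrnp2 slopes the other way, and Ier5l and Trib2 overlap.

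Ier2, a nuclear regulator whose transcript is a standard marker of stimulated cells, showed the largest change of the 9 genes. Its KCl arrays read 7.47, 7.55, 6.90 and 6.28 in the order of the replicate numbers, and its untreated arrays 5.48, 4.81, 4.66 and 5.12. The groups did not overlap: the lowest KCl array was higher than the highest untreated array. The mean was 7.05 ± 0.591 in KCl and 5.02 ± 0.363 in untreated cultures (SD, n = 4 each), a log2 change of 2.03 (SE 0.299, limma adjusted p = 0.0142). Among all genes, 0.176% had a higher log2 change. Ier2 passed in all 8 fits that left out 1 array, with an adjusted p of up to 0.0486.

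Ier3, the survival and MAP kinase regulator, changed by less. It stood at 6.37, 7.11, 6.44 and 6.06 in KCl arrays and at 5.70, 5.43, 5.36 and 5.38 in untreated arrays. All KCl arrays were above all untreated ones, with replicate 2 the highest of the KCl group. Its log2 change was 1.02 (SE 0.21, limma adjusted p = 0.046), just under the threshold. The call was kept in 2 of the 8 fits without 1 array, those without KCl replicate 2 (adjusted p = 0.0368) or KCl replicate 4 (0.0448), and was lost in the other 6 at adjusted p values of up to 0.128. Without both arrays numbered 1 the log2 change was 1.14 (adjusted p = 0.0764, or 0.0583 with the replicate block).

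Ier5, which encodes an activator of the heat shock factor HSF1, and its relative Ier5l did not pass. Ier5 read 5.90, 5.89, 5.75 and 5.69 in KCl arrays and 5.59, 5.55, 5.68 and 5.13 in untreated arrays. The groups did not overlap, but the lowest KCl value and the highest untreated value differed only in the second decimal. The log2 change of Ier5 was 0.32 (95% interval 0.02 to 0.62, limma adjusted p = 0.345, or 0.186 with the replicate block). Ier5l read 4.57, 4.65, 4.97 and 4.65 in KCl arrays and 4.82, 4.68, 4.65 and 4.57 in untreated arrays. Its groups overlapped throughout. The 95% interval of its log2 change ran from -0.22 to 0.29 (change 0.03, limma adjusted p = 0.971).

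RefSeq promoter windows of assembly GRCm38.p6, from 250 bases before to 50 after a start site, were matched by symbol for 7 of the 9 genes, in 11 windows. Ier2 and Trib1 had no window, so their promoters were not searched. Those of Ier3, which rose, and Ier5, which did not pass, are shown because both carry the same pair of promoter motifs. Capitals mark the TATAA motif, the CCAAT motif (which reads ATTGG on the other strand) and, in Ier3 alone of this pair, a match to the kappa B motif of NF-kB factors.
Ier3, chr17:35821463-35821762, plus strand: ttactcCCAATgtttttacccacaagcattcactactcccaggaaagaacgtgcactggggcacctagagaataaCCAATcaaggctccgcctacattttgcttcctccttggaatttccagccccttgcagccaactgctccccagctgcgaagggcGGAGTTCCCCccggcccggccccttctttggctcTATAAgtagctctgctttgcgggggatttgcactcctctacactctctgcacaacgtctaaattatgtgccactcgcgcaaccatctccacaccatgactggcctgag
Ier5, chr1:155099587-155099886, minus strand: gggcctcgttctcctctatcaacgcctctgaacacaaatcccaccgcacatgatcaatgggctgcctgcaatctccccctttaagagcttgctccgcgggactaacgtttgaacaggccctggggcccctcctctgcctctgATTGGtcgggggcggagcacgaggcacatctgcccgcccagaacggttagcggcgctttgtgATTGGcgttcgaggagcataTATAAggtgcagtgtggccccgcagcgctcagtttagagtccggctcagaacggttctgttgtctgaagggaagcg
Counted from the start site, the TATAA match began at position -58 in Ier3 and -26 in Ier5, and each window held 2 CCAAT matches. Of all 32851 windows, 24.9% held TATAA on either strand, 37.4% held CCAAT and 8.46% a kappa B match. A match is a description of the sequence only.

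Csrnp1, a transcriptional regulator, was higher in every KCl array than in every untreated array. Its KCl arrays read 5.72, 5.14, 6.51 and 5.95, and its untreated arrays 4.01, 4.15, 4.06 and 3.94. The groups were far apart, and the KCl values were spread more widely than the untreated ones, with replicate 3 highest and replicate 2 lowest. All untreated values lay below every array median (4.44 to 4.48), so whether Csrnp1 was detected in untreated cultures is unknown. The narrow untreated spread and the size of the change carry that limit. The mean was 5.83 ± 0.564 in KCl and 4.04 ± 0.0872 in untreated cultures (SD, n = 4 each), a log2 change of 1.79 (SE 0.25, limma adjusted p = 0.0117). Csrnp1 passed in all 8 fits without 1 array, with an adjusted p of up to 0.0419.

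Csrnp3, its relative, lay higher after KCl in every same-numbered pair, which held for 11.0% of all genes. It read 9.01, 9.11, 9.69 and 9.80 in KCl arrays and 7.33, 8.64, 8.78 and 8.89 in untreated arrays. The lowest KCl array was only slightly higher than the highest untreated array, and the untreated array numbered 1 was far below its group. The log2 change was 0.99, with an SE of 0.355 without the block (limma adjusted p = 0.256) and 0.19 with it (limma adjusted p = 0.0396). Without both arrays numbered 1 the log2 change was 0.76 (adjusted p = 0.114, or 0.0599 with the block), and without the untreated array numbered 1 alone it was 0.63. The call with the block did not hold without the pair numbered 1, in a fit with fewer arrays and an SE of 0.138. Over all genes 538 passed in that fit, against 985 with the block on all arrays.

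Csrnp2 was the 1 gene of the 9 with a change below 0. Its KCl arrays read 7.09, 6.96, 7.39 and 6.82, and its untreated arrays 7.20, 7.57, 7.87 and 7.32. The groups overlapped, yet the KCl array was the lower of each same-numbered pair, which held for 13.2% of all genes. The log2 change was -0.42 (95% interval -0.82 to -0.03, limma adjusted p = 0.345, or 0.102 with the replicate block), so Csrnp2 did not pass in either fit.

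The promoter windows of Csrnp1 and Csrnp2 are shown because these 2 genes differed most in their change among the relatives compared. RefSeq gives Csrnp1 4 start sites, and the 2 windows with the most matches to TGACTCA, the AP-1 site, or to TGACG, the core of the cAMP response element, are printed. The motifs were sought on both strands, so the capitals TGAGTCA and CGTCA are the same motifs read from the other strand, CCAAT reads ATTGG there, and TATAA is also in capitals.
Csrnp1, chr9:119982974-119983273, minus strand: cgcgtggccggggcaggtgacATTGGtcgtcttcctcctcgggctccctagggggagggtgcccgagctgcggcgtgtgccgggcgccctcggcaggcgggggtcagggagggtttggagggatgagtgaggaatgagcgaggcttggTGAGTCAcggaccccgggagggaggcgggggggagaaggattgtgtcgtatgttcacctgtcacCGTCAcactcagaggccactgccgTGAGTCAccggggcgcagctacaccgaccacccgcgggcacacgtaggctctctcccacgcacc
Csrnp1, chr9:119983730-119984029, minus strand: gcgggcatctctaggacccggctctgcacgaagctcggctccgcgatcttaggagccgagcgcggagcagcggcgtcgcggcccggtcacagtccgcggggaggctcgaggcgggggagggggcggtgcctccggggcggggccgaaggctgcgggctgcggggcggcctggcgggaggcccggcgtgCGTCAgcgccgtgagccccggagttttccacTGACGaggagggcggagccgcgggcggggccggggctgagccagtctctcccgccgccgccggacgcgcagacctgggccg
Csrnp2, chr15:100495190-100495489, minus strand: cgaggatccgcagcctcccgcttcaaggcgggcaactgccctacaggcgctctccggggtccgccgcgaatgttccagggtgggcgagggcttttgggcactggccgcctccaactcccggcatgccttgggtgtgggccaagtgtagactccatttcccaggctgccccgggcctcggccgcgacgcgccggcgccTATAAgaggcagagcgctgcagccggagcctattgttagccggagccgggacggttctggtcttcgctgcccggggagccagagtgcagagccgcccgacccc
Each line runs 5′ to 3′ on the strand of the gene. The Csrnp1 window that begins at 119982974 held 2 AP-1 matches, at positions -102 and -14, where 5.2% of all windows held at least 1. All 4 Csrnp1 windows held TGACG, against 20.8% of all windows, and none of the other 6 matched genes did. Counted by gene, 1 of the 7 matched genes held it, against 23% of all genes with a window. The full element TGACGTCA, which contains TGACG, was in 0 of the 11 windows and in 1.79% of all windows, and the CArG box of serum response factor was in 0 and in 1.63%. None of the 11 windows belonged to Ier2 or Trib1. These are letters in short windows and say nothing of which start site was used or which factor was bound.

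Trib1 and Trib2, the Tribbles genes, did not pass. Trib1 read 6.84, 5.89, 6.96 and 6.08 in KCl arrays and 6.15, 6.36, 5.31 and 5.00 in untreated arrays. The groups overlapped, since the untreated arrays numbered 1 and 2 were each above 2 KCl arrays. Its log2 change was 0.74 (95% interval -0.09 to 1.56, limma adjusted p = 0.456, or 0.285 with the replicate block), and 3 of 4 pairs were higher. Trib2 read 6.36, 7.41, 7.12 and 6.77 in KCl arrays and 6.64, 6.88, 7.28 and 6.67 in untreated arrays. Its groups overlapped throughout, with a log2 change of 0.05 (95% interval -0.50 to 0.59, limma adjusted p = 0.982).

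**Figure D2:**
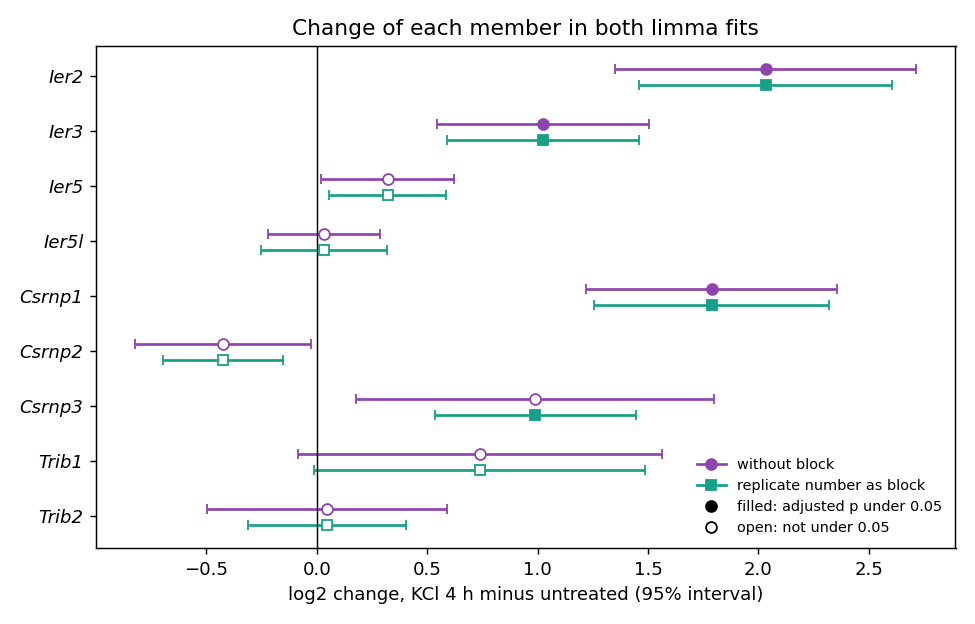
Log2 change of each gene, KCl 4 h minus untreated, with its 95% interval, without the replicate block (circles) and with it (squares). Filled symbols have a limma adjusted p under 0.05: Ier2, Ier3 and Csrnp1 in both fits, and Csrnp3 with the block alone.

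The size of the change differed between same-numbered pairs, and the order of the pairs was not the same for all genes. In pair 2, the log2 difference of KCl minus untreated was the highest of the 4 pairs for Ier2 (2.74), Ier3 (1.68) and Trib2 (0.53). In the same pair it was the lowest of the 4 for Csrnp1 (0.99), Csrnp2 (-0.61), Csrnp3 (0.47) and Trib1 (-0.47). Pair 3 held the highest differences of Csrnp1 (2.44), Trib1 (1.65) and Ier5l (0.32). Pair 4 held the lowest of Ier2 (1.16) and the highest of Ier5 (0.56). The Trib1 differences had the widest spread, with an SD of 0.894 over 4 pairs, and those of Ier5 the narrowest, with 0.199. With 4 pairs these orders are a description only.

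**Figure D3:**
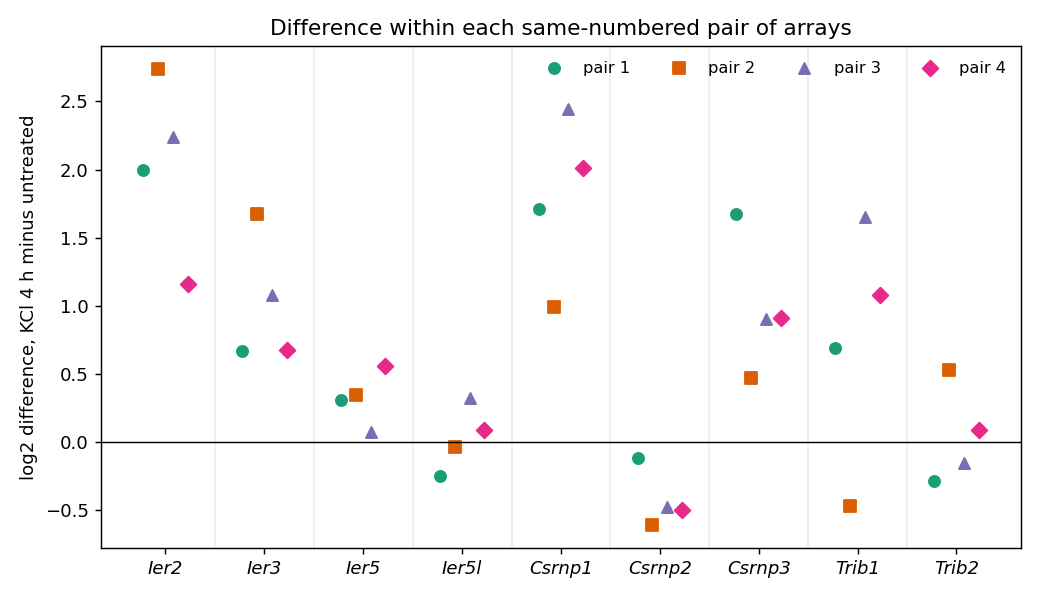
Log2 difference between the KCl array and the untreated array of the same replicate number, for each gene and each of the 4 pairs. Pair 2 is highest for Ier2 and Ier3 and lowest for Csrnp1, Csrnp3 and Trib1.

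Whether relatives changed by different amounts was tested on the log2 difference of 2 genes within each array, with an exact two-sided permutation over the 8 arrays and 7 pairs of relatives. The smallest p that 70 splits allow is 0.0286. The change of Csrnp1 exceeded that of Csrnp2 by 2.21, and that of Ier2 exceeded that of Ier5 by 1.71. Ier2 minus Ier5l averaged 2.34 ± 0.662 in KCl arrays and 0.34 ± 0.317 in untreated arrays (SD, n = 4 each), and Csrnp2 minus Csrnp3 averaged -2.34 ± 0.456 in KCl arrays and -0.92 ± 0.597 in untreated arrays. In these 4 pairs of genes the KCl and untreated arrays did not overlap, and the exact p was the smallest possible, 0.0286, which adjustment over 7 pairs raised to 0.05, at and not under the threshold. Csrnp1 minus Csrnp2 was -1.37, -1.82, -0.88 and -0.87 in KCl arrays and -3.19, -3.42, -3.80 and -3.38 in untreated arrays. The untreated Csrnp1 values in it were below every array median, which limits the size of that difference. Csrnp1 exceeded Csrnp3 by 0.80 and Ier5 exceeded Ier5l by 0.29, both with an exact p of 0.114 (adjusted 0.133), and Trib1 exceeded Trib2 by 0.69 (exact p = 0.286). None of the 7 differences was under the threshold after adjustment. A single pair of genes could not have been, since the smallest p alone stays above the threshold after adjustment over 7 pairs. Without KCl replicate 1 Trib1 exceeded Trib2 by 0.37, without untreated replicate 3 by 0.42 and without KCl replicate 2 by 1.04.

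Genes that bind, modify or answer to these proteins were taken as lists. Among 15 measured partners and targets of the IER proteins, most of them subunits of the PP2A phosphatase, Mcl1 rose and 14 did not pass. By the same rule 1.34% of all genes rose. Mcl1, an anti-apoptotic member of the BCL-2 family, read 9.69, 9.53, 9.63 and 9.56 in KCl arrays and 8.88, 8.95, 8.61 and 8.49 in untreated arrays. Its groups were well apart (log2 change 0.87, limma adjusted p = 0.0114), whereas a second Mcl1 probe set, at means of 4.33 in KCl arrays and 3.97 in untreated arrays, had a log2 change of 0.35. The median log2 change of the list was 0.12. None of 9 measured HSF1 target genes passed without the block, where 2 had an unadjusted limma p under 0.05, against 13.0% of all genes. With the block 2 of them rose, against 2.43% of all genes. They were the inducible chaperone Hspa1b (log2 change 0.97, limma adjusted p = 0.129 without and 0.0339 with the block) and its co-chaperone Bag3 (0.85, 0.32 and 0.047). Without both arrays numbered 1, 0 of the 9 passed with the block. The list median was 0.18.

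Of 14 measured Tribbles partners none passed without the block, where 3 had an unadjusted limma p under 0.05, against 13.0% of all genes. The smallest p values were those of Det1, an adaptor of COP1 ligases (log2 change -0.39, limma adjusted p = 0.115), and the C/EBP family member Cebpg (0.81, adjusted p = 0.258, or 0.024 with the block). Cebpg was the 1 member to rise with the block, against 2.43% of all genes. Det1 was dim, at means of 3.96 in KCl arrays and 4.35 in untreated arrays, below every array median. Without both arrays numbered 1, 0 of the 14 passed with the block. Trib3, the Tribbles gene tied to the integrated stress response, had a log2 change of -0.05 (limma adjusted p = 0.952). Its means, 4.29 in KCl arrays and 4.33 in untreated arrays, were also below every array median, so whether it was detected is unknown. Among 10 axin and beta-catenin genes, Lgr5, a receptor for R-spondins, rose 3.03-fold and 9 did not pass, where 1.34% of all genes rose. Lgr5 read 5.10, 5.41, 6.50 and 6.53 in KCl arrays and 4.26, 4.43, 4.38 and 4.07 in untreated arrays, so the groups did not overlap (log2 change 1.60, limma adjusted p = 0.0439). Its untreated values were all below every array median. A second Lgr5 probe set, at means of 4.15 in KCl arrays and 4.08 in untreated arrays, had a log2 change of 0.07, and the mean of both changed by 0.84. The call was kept in 1 of the 8 fits without 1 array, that without KCl replicate 1 (adjusted p = 0.0189), and lost in the other 7 at adjusted p values of up to 0.112. Of 16 well-known rapid early genes, 12 rose and 0 fell, against 1.34% and 1.02% of all genes. With the block 14 rose, against 2.43% of all genes. Among the genes that rose were the AP-1 subunit genes Fosb (5.43) and Fos (4.19) and the nuclear receptor gene Nr4a1 (4.02). Those that missed without the block were Npas4 (log2 change 4.05, limma adjusted p = 0.0517), Arc (1.56, 0.0915), Egr1 (1.26, 0.213) and Zfp36 (0.77, 0.686). Npas4 and Zfp36 passed with it (limma adjusted p = 0.0324 and 0.0343). The median log2 change of the 16 was 2.57. Ier2 and Csrnp1 changed by less than that median and the difference was not tested.

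**Figure D4:**
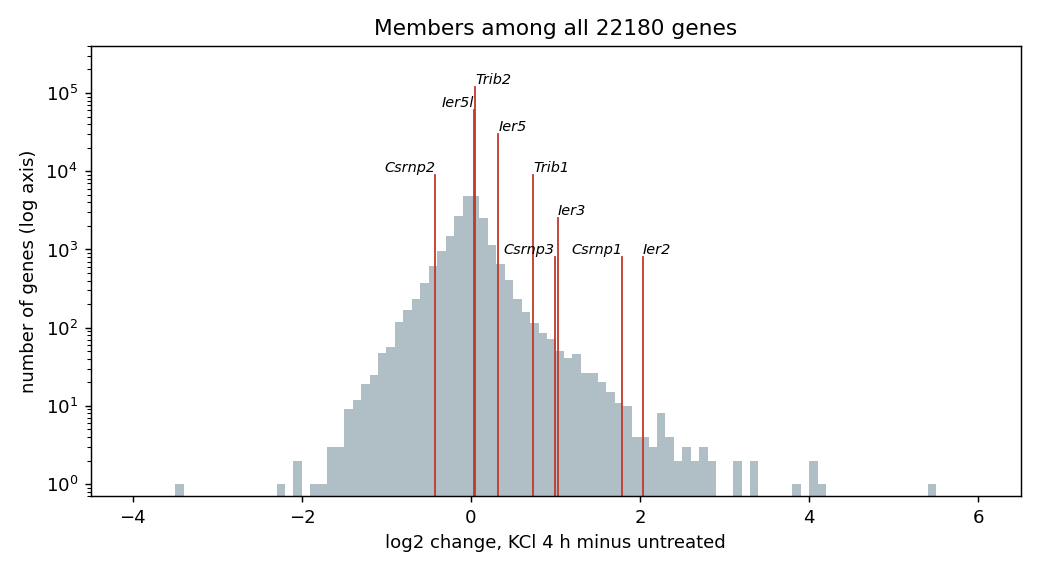
Number of genes at each log2 change, KCl 4 h minus untreated, over all 22180 genes, on a log axis, with red lines at the 9 genes, whose heights carry no value. Ier2 and Csrnp1 lie in the right tail, with 0.176% and 0.252% of genes higher, while Ier5l and Trib2 lie in the bulk.

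For each gene the profile over the 8 arrays was compared with that of every named gene, by the root mean square difference between deviations from each gene's own mean. The nearest profiles to Ier2 were those of Tob2, an antiproliferative regulator (0.291), the growth factor gene Hbegf (0.315) and the microRNA gene Mir1938 (0.359), with a root mean square deviation of 1.1 for Ier2 itself. Nearest to Csrnp1 (0.96) were the ubiquitin ligase gene Peli1 (0.227), the SAGA complex gene Atxn7 (0.236) and the histone demethylase gene Kdm7a (0.261). Nearest to Ier3 (0.588) were Srf, which encodes serum response factor (0.171), the kinetochore gene Cenpq (0.172) and the zinc finger gene Mynn (0.195). All 9 of these genes had a limma adjusted p under 0.05 with log2 changes of 1.08 to 2.05. For genes that did not pass, the nearest were Dpf1, Ero1b and Palmd for Csrnp3, Adcy8, Midn and Sesn2 for Trib1, Snx9, Tspo2 and Add1 for Ier5, and Elmo2, Ncln and Strn4 for Csrnp2. Ier5l and Trib2, whose root mean square deviations were 0.127 and 0.332, were nearest to genes that also did not pass, Cd96, Chaf1a and Vmn1r41 for Ier5l and Myl6b, Bdh1 and Frmd4a for Trib2. The measure is on the log2 scale, includes the difference between the groups, and carries no test.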

How the data were processed

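RNA from 8 cultures was measured on Affymetrix arrays, 4 after KCl and 4 untreated, grouped by title and labelled with the WT Plus kit, per the labels. The authors deposited log2 values for each probe set. The submitters' processing notes name RMA and Partek without versions or settings. Any batch adjustment and the genome build are not stated in the labels. Scanner files were not analysed here, so signal over background is unknown, and RMA compresses differences of dim genes.

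Of 34472 probe sets, 23521 had 1 gene symbol in the platform annotation, 1814 several and 9137 were unnamed here. The brightest probe set was used for the 1082 genes with several, which left 22180 genes. KCl was set against untreated with limma 3.58.1 (R 4.3.3, lmFit and eBayes, two-sided), with Benjamini-Hochberg adjustment over all genes. Relatives were compared by exact permutation over arrays, and figures drawn in matplotlib 3.10.9. The fits were tested on simulated data. Nothing says that the cultures were prepared separately beyond the mouse numbers, so p-values measure the spread between these arrays.

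Whether replicate numbers pair the arrays was checked from deviations from group means, across genes. Same-numbered arrays correlated at 0.234 to 0.638, all over 0.1, and other pairs at up to 0.302, so the ranges overlapped. Each KCl array correlated most with the untreated array of its own number, and the reverse also held, though the value for number 2 (0.234) lay below 0.302. Same-numbered arrays also had the mouse numbers nearest to each other. No label names a shared litter or day, so the numbers were treated as a possible pairing only. The main fit and the permutation over the 8 arrays did not use it. The block was run as an alternative, with a median SE of 0.119 against 0.142 without it. The other alternatives were quantile normalization repeated, median centring, brighter genes only, other uses of probe sets, trended, unmoderated and weighted fits, a minimum fold of 1.5, and leaving out arrays. The 9 genes and the lists were chosen with earlier results of these data known. Named beside them are list members past the threshold, or otherwise the 2 of smallest p, and the 3 nearest profiles of each gene. Trib3 and the rapid early genes that did not pass were added after their values were seen. Listed genes without a probe set of their own were left out. Promoter sequences are from RefSeq, GRCm38.p6. The array build is not given, so no other coordinates are reported.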

Additional observations from a re-analysis of the deposited data

Results flagged for a closer look

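Among 18 groups of 4 arrays, 1 for each of the 9 genes in KCl and in untreated cultures, 1 array lay far from the others by Dixon's gap ratio at the 95% level, where chance gives about 1 in 20. It was the untreated array numbered 1 for Csrnp3, at 7.33 on the log2 scale, against 8.64 to 8.89 in the other untreated arrays. The KCl array of that number, at 9.01, was also the lowest of its group. Without the untreated array numbered 1 the log2 change of Csrnp3 was 0.63 (limma adjusted p = 0.218), against 0.99 with all arrays.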

How the results depend on the processing

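Ier2 and Csrnp1 kept their direction in every alternative and their call in all but 2, the linear model without moderation (limma without eBayes, adjusted p = 0.0862 and 0.075) and the test for at least 1.5-fold with treat (0.161 for each). Ier3 lost its call in those 2 as well (0.155 and 1) and with trended and robust eBayes (0.0519), every probe set tested (0.056) and without both arrays numbered 1. The genes that rose among the 9 were thus 0 without moderation and 0 with treat, and 2 to 3 when single arrays were left out. Calls over all 22180 genes numbered 524, against 985 with the replicate block, 129 without moderation, 41 with treat and 186 to 501 with single arrays left out. With the replicate block, 2 HSF1 targets and 1 Tribbles partner passed, and 0 of either once both arrays numbered 1 were left out, and with single arrays left out 0 to 1 HSF1 targets. Passing axin and beta-catenin genes were 0 without moderation, with treat and with every probe set tested, and 0 to 1 with single arrays left out. The rapid early genes numbered 7 without moderation and 7 with treat, and Mcl1 lost its call with treat, leaving 0 of its list. Leaving out single arrays turned the sign of the small changes of Trib2 (-0.12 to 0.23) and Ier5l (-0.055 to 0.079). The differences between relatives kept their sign in all alternatives run. With single arrays left out, Ier2 minus Ier5 was 1.53 to 1.93, Ier2 minus Ier5l 1.81 to 2.24, Csrnp1 minus Csrnp2 2.09 to 2.41, Csrnp1 minus Csrnp3 0.61 to 1.15, Csrnp2 minus Csrnp3 -1.63 to -1.15, Ier5 minus Ier5l 0.21 to 0.40 and Trib1 minus Trib2 0.37 to 1.04. The first 5 had an exact adjusted p of 0.04 without untreated replicate 1, the 1 of 8 such fits in which any was under 0.05, and in the other 7 it was 0.16 to 0.267 for Csrnp1 minus Csrnp3 and 0.05 to 0.1 for the other 4. The 0.04 depends on those 5 sitting at the smallest possible p together, since a single pair of genes could not pass by itself. Exact permutation within same-numbered pairs, the replicate block of that test, cannot go below 0.125 (adjusted 0.175), so it says nothing about stability. Among the 9 genes the block in limma changed the call of Csrnp3 alone. The causes of these changes were not tested. Signal over background could not be assessed, which limits Csrnp1 and Lgr5 in untreated cultures, and Ier5l, Det1, Trib3 and the second probe sets of Mcl1 and Lgr5 in both groups.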
